A study of Arabidopsis thaliana with 30 samples.

Results

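EXORDIUM (EXO) and its relatives EXORDIUM-LIKE 1 to 5 (EXL1 to EXL5) are 6 genes of Arabidopsis thaliana that encode small secreted proteins of the cell wall space. They are AT4G08950 (EXO), AT1G35140 (EXL1, annotated as PHI-1), AT5G64260 (EXL2), AT5G51550 (EXL3), AT5G09440 (EXL4) and AT2G17230 (EXL5), 6 out of 32678 genes measured in the mutant experiment, 34218 in the ZAT lines and 33602 in the sorted cells. They were chosen by locus code, as a named family, with results of these same 30 libraries already known. The calls given for them therefore describe where they stand in fits across all genes and are no independent evidence.

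EXO was first described as a gene of dividing and growing cells. Brassinosteroids, the steroid hormones that promote cell expansion, raise its transcript, and loss of EXO reduces leaf and root growth and the expression of several growth genes. EXL1 is known for a role in the response to low carbon supply. Brassinosteroids are perceived at the cell surface by the receptor kinase BRI1 with its partner BAK1, and the signal reaches the nucleus through the kinase BIN2 and the transcription factors BZR1 and BES1.

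The 30 libraries formed 10 groups of 3, all from 5-day-old seedlings. In 4 groups the inducer estradiol, at 5 µM for 10 or 14 h, switched on ZAT14-like or ZAT14, zinc finger transcription factors, from pWOL(XVE)::ZAT14-like-TURQ or pWOL(XVE)::ZAT14-TURQ in Col-0, and 2 DMSO groups of the same lines were their controls. The WOL promoter is active in the vascular tissue of the root, whereas RNA came from whole root meristems, as it did for the pear sextuple mutant and the Col-0 wild type, which had no treatment. The last 2 groups were cells sorted from roots of pCALS7::H2B-RFP pNAC086(XVE)::PLT2-3YFP seedlings, in which 10 µM estradiol for 6 h switched on PLT2, a stem cell factor, in maturing sieve elements, the conducting cells of the phloem. The control cells were sorted on RFP alone and the induced cells on RFP and YFP, so the gate differed along with the treatment. No line without an inducible construct was given estradiol, and the labels name neither the alleles of the sextuple mutant nor the number of independent lines. For the DMSO groups no treatment time was found in the labels. Whether the ZAT controls match the 10 h or the 14 h harvest is therefore unknown, and a difference in harvest time cannot be told apart from the treatment. Whether a group's libraries are separate cultures is not stated either, and the p-values reflect no more than the scatter among them, which may be technical.

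The induced genes were higher in the libraries labelled as induced. AT5G03510 lay at 41.6 to 71.4 FPKM (fragments mapped, scaled for gene length and library depth) in the induced ZAT14 libraries against 13.9 to 16.0 in their DMSO controls, and AT5G04390 at 48.2 to 79.8 against 5.46 to 6.59 in the ZAT14-like line. PLT2 lay at 16775 to 55471 CPM (counts scaled to the library total with TMM factors) in the induced cells and at 6.88 to 10.7 in the control cells. In the mutant, 4 Dof transcription factor genes were lower than in every Col-0 library (PEAR1, PEAR2, DOF6 and OBP2) and TMO6 and HCA2 were higher. The sorted-cell libraries held 31426740 to 44837397 counts, and no pair of libraries in any table was identical. The sieve element genes CALS7, NAC086 and APL lay at 326.6 to 5680 CPM in the sorted cells, while the root hair and epidermis markers summed to at most 22.3 CPM, the root cap markers to at most 96.5 and the 2 companion cell markers to 207.2 to 1511.

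Each of the 6 genes has 1 transcript of 1 exon, and no annotated gene overlaps it. The proteins fell into a pair of subgroups by sequence. EXL2 and EXL4 were 82.3% identical, EXO and EXL1 67.6%, and the 4 were 56.7% to 82.3% identical to each other. EXL3 and EXL5 were 56.0% identical to each other and 34.2% to 41.5% identical to the other 4. No stretch of 50 coding bases of any member occurred elsewhere in the genome, so an exact read of that length from coding sequence belongs to 1 gene. The untranslated parts of the exons were not searched. The remaining annotated family genes are EXL6 (AT3G02970) and EXL7 (AT2G35150), of which EXL7 was 58.9% identical to EXL5 and 57.1% to EXL3.

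The 250 bases before the annotated start of 4 members are shown, because these genes moved most in the comparisons below and because the sextuple mutant affects Dof factors, whose core binding word is AAAG. Capitals mark AAAG on either strand (written CTTT on the other), in sequence of the TAIR10.1 assembly from RefSeq, 5′ to 3′ on the strand of each gene.
EXO, chr4:5739969-5740218, forward strand: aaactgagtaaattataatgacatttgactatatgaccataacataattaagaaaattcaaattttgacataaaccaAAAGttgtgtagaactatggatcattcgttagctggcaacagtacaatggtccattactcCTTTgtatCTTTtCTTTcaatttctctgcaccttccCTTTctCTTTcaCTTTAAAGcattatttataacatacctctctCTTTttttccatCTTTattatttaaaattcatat
EXL2, chr5:25703399-25703648, forward strand: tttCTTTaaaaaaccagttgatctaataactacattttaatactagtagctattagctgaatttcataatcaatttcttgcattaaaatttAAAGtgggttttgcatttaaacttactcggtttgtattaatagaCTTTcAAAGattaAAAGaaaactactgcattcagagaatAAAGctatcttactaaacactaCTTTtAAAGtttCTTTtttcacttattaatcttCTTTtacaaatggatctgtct
EXL3, chr5:20940896-20941145, reverse strand: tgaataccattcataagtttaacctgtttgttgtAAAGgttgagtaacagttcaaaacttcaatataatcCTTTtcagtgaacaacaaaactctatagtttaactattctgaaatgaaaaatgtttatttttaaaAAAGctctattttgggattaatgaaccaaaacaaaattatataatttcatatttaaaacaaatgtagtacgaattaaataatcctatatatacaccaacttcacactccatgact
EXL5, chr2:7496293-7496542, reverse strand: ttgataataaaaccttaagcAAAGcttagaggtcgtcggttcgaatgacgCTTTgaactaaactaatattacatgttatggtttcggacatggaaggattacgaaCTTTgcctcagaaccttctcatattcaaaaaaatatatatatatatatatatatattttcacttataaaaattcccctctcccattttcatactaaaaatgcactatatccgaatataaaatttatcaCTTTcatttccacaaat

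The windows of EXO and EXL2 each held 10 AAAG words, a number reached by 1.54% of 27425 such windows in the genome. A and T made up 71.6% of the EXO window, 74.8% of those of EXL2 and EXL3 and 70.8% of that of EXL5. The share over the genome was not matched for base content, so it is no measure of enrichment. EXL3 held 3 and EXL5 held 4, while EXL1 had 6 and EXL4 had 2. The median window held 4.0, and 97.97% held at least 1. The brassinosteroid response words CGTGTG and CGTGCG, found on either strand in 6.71% of windows, were in none of the 6, nor was the G-box CACGTG, found in 6.49%. The wider E-box CANNTG (N is any base), found in 55.32%, occurred 2 times in EXL2 and 1 time each in EXO, EXL1 and EXL3. EXL4 and EXL5 held 0. These matches describe letters in a window only.

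The order of the members differed between groups of whole meristems. In Col-0, EXO had the highest mean (15.7 FPKM), followed by EXL5 (13.8), EXL3 (12.2) and EXL2 (7.76), and each neighbouring pair in this order overlapped. In the mutant EXL2 had the highest mean (36.8 FPKM), followed by EXO (28.0), EXL3 (18.4) and EXL5 (13.0). Over the 24 meristem libraries EXO ran from 10.5 to 32.2 FPKM with a median of 21.7, and EXL2 from 4.98 to 56.8 with a median of 18.5. EXL5 had a median of 8.70, EXL3 of 6.54, EXL4 of 1.3 and EXL1 of 0.759 FPKM. EXL6 reached at most 0.219 FPKM and was listed at 0 in 11 libraries, and EXL7 reached 0.390, so neither passed the filter on low values. The ranges and medians over the 24 libraries pool the mutant experiment and the ZAT lines, which were scaled separately. Levels were tested only within each of these.

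**Figure D1:**
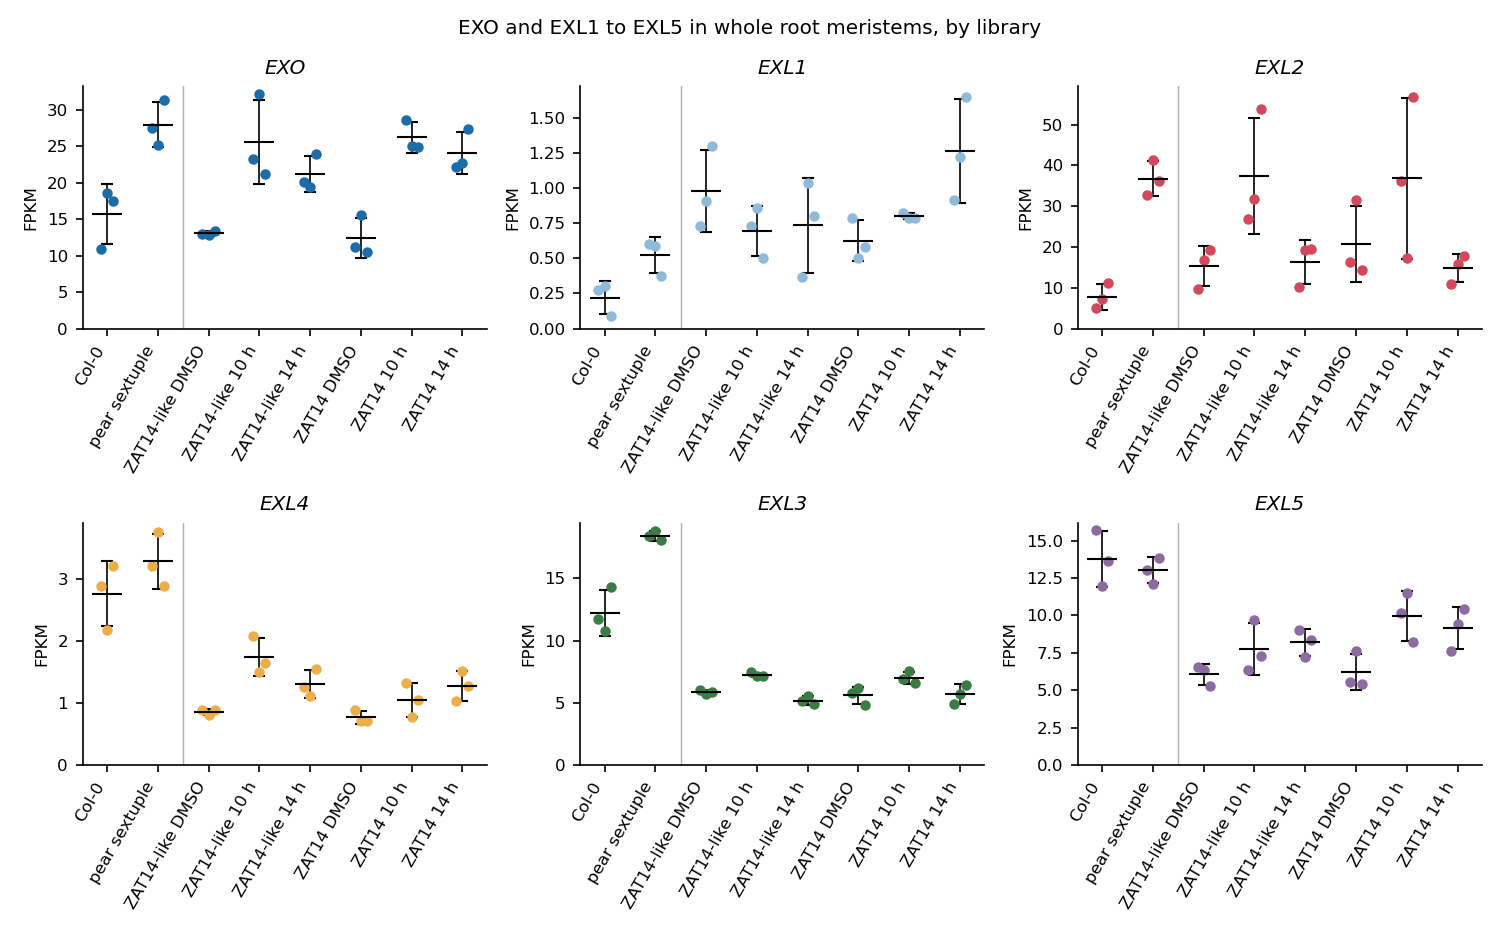
FPKM of each gene (vertical axis) in the 8 whole-meristem groups. Points are libraries, horizontal bars the mean and error bars the SD (n = 3); the grey line separates the mutant table from the table of the ZAT lines. The 12 induced libraries lie above all 6 DMSO libraries for EXO, with the lowest at 19.5 and the highest control at 15.6 FPKM. The share of all genes separated in this way was not computed.

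In the pear sextuple meristems EXL2, EXO and EXL3 were higher than in Col-0, with EXL2 changing most. EXL2 lay at 32.8, 41.3 and 36.2 FPKM in replicates 2, 3 and 4 of the mutant, against 4.98, 7.21 and 11.1 in replicates 1, 2 and 4 of Col-0. The lowest mutant library stood well above the highest Col-0 library. The means were 36.8 ± 4.27 and 7.76 ± 3.09 FPKM (SD, n = 3 each), a ratio of 4.74, and the log2 fold change on the log2(FPKM + 1) scale was 2.16 ± 0.23 (SE, limma adjusted p = 8.77e-05).

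EXO had 27.5, 25.1 and 31.3 FPKM in the mutant libraries, against 10.9, 18.7 and 17.5 in Col-0. The groups did not overlap, and the log2 fold change was 0.82 ± 0.18 (SE, limma adjusted p = 0.00449). EXL3 was even across the mutant libraries, at 18.4, 18.8 and 18.0 FPKM, against 11.7, 10.7 and 14.3 in Col-0. Its log2 fold change was smaller, 0.56 ± 0.10 (SE, limma adjusted p = 0.00185), again without overlap. Of all genes tested in this comparison, 48.3% were higher in the mutant without overlap.

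EXL5, the closest relative of EXL3 among the 6, did not pass the test, with means of 13.0 ± 0.872 FPKM for the mutant and 13.8 ± 1.87 for Col-0 (SD, n = 3 each), a log2 difference of -0.07 with an interval of 2 SE from -0.28 to 0.14. EXL4, the closest relative of EXL2, was at 3.28 ± 0.438 and 2.76 ± 0.526 FPKM, and its interval ran from -0.08 to 0.47. EXL1 stayed under the filter, with mutant libraries at 0.372 to 0.603 FPKM and Col-0 at 0.0877 to 0.300. It had no value of 0 and no overlap between groups, and in a fit without the filter its log2 fold change was 0.32 (limma adjusted p = 0.0283).

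The calls on 3 of the 5 members tested stood in a comparison where most genes were called: 63.2% of 17062 genes passed, 44.6% higher and 18.6% lower. The median gene was higher in the mutant by 0.207 on the log2 scale. After rescaling by median ratios the split of calls moved from 7602 higher and 3176 lower to 4939 and 5054. EXL2, EXO and EXL3 kept log2 fold changes of 1.95, 0.61 and 0.35 and their calls (limma adjusted p = 0.000142, 0.0194 and 0.0223).

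The makeup of the family differed between the genotypes. EXL2 held 14.5% ± 3.91 of the summed FPKM of the 6 genes in Col-0 and 36.7% ± 3.39 in the mutant (SD, n = 3 each), and EXL5 held 26.7% ± 6.15 and 13.0% ± 0.95. These shares do not depend on how a library was scaled. The sum of the 6 was 52.5 ± 6.83 FPKM in Col-0 and 99.97 ± 3.87 in the mutant libraries.

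Other genes of brassinosteroid action moved in the same comparison. Of 9 tested genes of brassinosteroid signalling, 9 were higher in the mutant, with a median log2 fold change of 0.60, and 7 after median-ratio rescaling. They included the receptor BRI1 (70.5 ± 3.76 against 40.5 ± 2.09 FPKM), its partner BAK1 (log2 fold change 0.60), the receptor inhibitor BKI1 (0.84) and the kinase BSK1 (0.68). Of 9 genes of brassinosteroid synthesis and turnover, 3 were higher, among them the inactivating enzyme BAS1 (1.33) and the synthesis enzyme ROT3 (1.40). The synthesis enzymes CPD (14.8 ± 1.09 against 29.0 ± 2.33 FPKM) and BR6OX2 (-0.97) were lower, and 4 genes of this list were lower after rescaling.

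Of the 5 tested growth genes reported to follow EXO or brassinosteroid, EXPA8, an expansin, had 8.07, 6.31 and 3.82 FPKM in the mutant libraries against 0.764 to 1.01 in the wild type. TCH4, a xyloglucan-modifying enzyme, was also higher (log2 fold change 0.85). IAA19, an auxin response repressor, was lower, at 0.751 to 0.978 against 3.48 to 6.61 FPKM.

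The list of low carbon and sugar starvation genes held the largest differences of single called genes among the lists. Of its 16 tested genes 11 were higher and 3 lower (KIN11, APL3 and KIN10), with a median log2 fold change of 1.03. The median was higher for root meristem markers (1.07), root cap markers (1.25) and the 1 tested endodermis marker (1.38). DYL1, a dormancy-associated gene, was at 547.8 ± 75.9 FPKM against 50.7 ± 12.1, and TPS8, a class of trehalose phosphate synthase-like protein, at 58.3 ± 6.44 against 4.69 ± 0.818. BT2, a BTB scaffold protein, was at 53.1 ± 9.14 against 3.83 ± 1.46, and ICL, the glyoxylate cycle enzyme isocitrate lyase, had a log2 fold change of 5.90.

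Cell type markers also differed between the genotypes, in both directions. The 3 root cap markers summed to 179.4 to 203.8 FPKM in the mutant and 72.4 to 86.8 in Col-0, and 3 of 3 were called higher. The 6 root meristem markers summed to 153.7 to 165.3 and 78.7 to 91.4 FPKM, with 4 called higher. Of 7 tested sieve element markers 4 were lower and 2 higher. Of 7 tested touch, wound and stress markers 2 were higher, ZAT10 and ZAT12, and 2 lower, JAZ10 and TCH3; after rescaling the counts were 1 and 3. The part of these differences in the members' values was not tested. In whole meristems, fewer cells of a type and less RNA per cell cannot be told apart.

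EXO was higher in the estradiol-treated libraries of both ZAT lines at both times. Since every induced library received estradiol, the inducer and the induced factor cannot be told apart, here or for PLT2. In the ZAT14-like line EXO was at 13.0, 12.8 and 13.4 FPKM with DMSO, at 23.3, 32.2 and 21.3 after 10 h and at 20.1, 19.5 and 24.0 after 14 h. In the ZAT14 line it was at 11.2, 15.6 and 10.5 with DMSO, at 28.7, 25.1 and 24.9 after 10 h and at 22.1, 22.7 and 27.4 after 14 h. Every induced library was above every DMSO library of either line. The share of all genes separated in this way was not computed. In single comparisons with DMSO, 18.2% and 19.8% of all genes were higher without overlap at 10 h and 14 h of ZAT14-like. After ZAT14 the shares were 12.4% and 15.5%. Lower without overlap were 13.0% and 18.8% after ZAT14-like and 7.95% and 12.3% after ZAT14. The 10 h and 14 h groups of a line share their DMSO libraries, so the 2 times are not separate evidence.

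The log2 fold change of EXO was 0.90 ± 0.15 after 10 h and 0.66 ± 0.15 after 14 h of ZAT14-like (SE, limma adjusted p = 0.00105 and 0.00722). After ZAT14 it was 1.04 ± 0.15 and 0.92 ± 0.15 (limma adjusted p = 0.00152 and 0.0014). Of the 6 members, 2 were called higher at 10 h and 1 at 14 h in each line. Across all 17157 genes tested, 8.96% were called higher at 10 h and 7.89% at 14 h of ZAT14-like, and 1.96% and 2.85% after ZAT14. In either direction the shares were 13.8% and 12.4%, and 3.21% and 4.28%. After median-ratio rescaling the share of calls that were higher at 10 h of ZAT14-like moved from 65.0% to 54.0%. In order of mean, EXO ran from ZAT14 DMSO (12.4) and ZAT14-like DMSO (13.1) through ZAT14-like 14 h (21.2), ZAT14 14 h (24.1) and ZAT14-like 10 h (25.6) to ZAT14 10 h (26.2 FPKM). The SDs ran from 0.294 to 5.79 FPKM, and only the step between the DMSO groups and the induced groups was free of overlap.

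EXL2 had higher means at 10 h than with DMSO or at 14 h in both lines, with wide spread. In the ZAT14-like line it was at 9.77, 16.8 and 19.1 FPKM with DMSO, at 26.9, 31.7 and 53.7 after 10 h and at 10.2, 19.4 and 19.5 after 14 h. In the ZAT14 line it was at 16.4, 31.4 and 14.3 with DMSO, at 36.2, 17.4 and 56.8 after 10 h and at 11.03, 15.8 and 17.8 after 14 h. The 10 h libraries stood above all others in the first line, whereas in the second the 10 h replicate 3 lay among the control and 14 h values.

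The 10 h difference of EXL2 missed the threshold in both lines. Its log2 fold change was 1.23 ± 0.40 after ZAT14-like (SE, limma adjusted p = 0.0506) and 0.73 ± 0.40 after ZAT14 (adjusted p = 0.434). From 10 h to 14 h the difference was -1.14 ± 0.40 (adjusted p = 0.0881) and -1.13 ± 0.40 (adjusted p = 0.124). Without the ZAT14 10 h replicate 3 the latter was -1.57 and passed (limma adjusted p = 0.0397). At 14 h EXL2 differed from DMSO by 0.09 and -0.39, with intervals of 2 SE from -0.70 to 0.89 and from -1.19 to 0.40.

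EXL4 was the other member called after 10 h of ZAT14-like. It was under 1 FPKM in all 6 DMSO libraries and passed the filter only through induced libraries, so the call is not independent of the filter. It was at 2.08, 1.495 and 1.65 FPKM after 10 h and at 0.887, 0.799 and 0.883 with DMSO, a log2 fold change of 0.56 ± 0.12 (SE, limma adjusted p = 0.00898). At 14 h it was at 1.25, 1.11 and 1.55 FPKM, still above every control, but missed the threshold (adjusted p = 0.116). In a fit of the compared groups alone the 10 h call was also lost (limma adjusted p = 0.0694). After ZAT14 it was at 0.772 to 1.33 FPKM at 10 h and 1.04 to 1.51 at 14 h, against 0.704 to 0.894 with DMSO, with adjusted p of 0.504 and 0.126.

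EXL5 was higher after 10 h of ZAT14, at 10.2, 11.5 and 8.24 FPKM against 5.59, 7.62 and 5.44 with DMSO. Its log2 fold change was 0.61 ± 0.16 (SE, limma adjusted p = 0.0454). This call was lost without any of 4 libraries: the DMSO replicate 1 (adjusted p = 0.14) or 4 (0.221), or the 10 h replicate 2 (0.0934) or 3 (0.219). In all, 10 of 13 alternatives lost it, among them median-ratio rescaling, a fit without the filter and a fit of the compared groups alone. At 14 h of ZAT14 EXL5 was at 7.64, 9.42 and 10.4 FPKM, above all 3 controls, with a log2 fold change of 0.50 (adjusted p = 0.0902). In the ZAT14-like line it was at 5.28 to 6.52 with DMSO, 6.33 to 9.71 at 10 h and 7.21 to 9.04 at 14 h, with adjusted p of 0.199 and 0.122.

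EXL3 moved within a narrow range. It was at 7.45, 7.12 and 7.17 FPKM after 10 h of ZAT14-like and at 5.12, 5.53 and 4.87 after 14 h, a fall of -0.42 ± 0.09 on the log2 scale between the times (SE, limma adjusted p = 0.0102). Against DMSO, at 6.03, 5.74 and 5.86 FPKM, neither time passed (adjusted p = 0.0673 and 0.283), although every 10 h library was above and every 14 h library below the controls. The same held for 18.2% of all genes above at 10 h and 18.8% below at 14 h. In the ZAT14 line it was at 6.62 to 7.55 after 10 h and 4.88 to 6.45 after 14 h, a difference of -0.27 ± 0.09 (adjusted p = 0.115). The call between times was lost in a fit of the compared groups alone (limma adjusted p = 0.0694).

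Between 14 h and 10 h, 1 of 6 members was called in the ZAT14-like line, where 8.66% of all genes were. In the ZAT14 line limma called 0 of 6, with 2 at an unadjusted p under 0.05, and 5.03% of all genes.

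EXL1 was low throughout, at 0.370 to 1.65 FPKM. In the ZAT14 line it was at 0.787, 0.506 and 0.583 with DMSO and at 0.918, 1.23 and 1.65 after 14 h, a log2 fold change of 0.47 ± 0.16 that missed the threshold (SE, limma adjusted p = 0.118). At 10 h it was at 0.823, 0.789 and 0.788, barely above the highest control (adjusted p = 0.752). In the ZAT14-like line the groups overlapped at both times. The difference between the lines in the 14 h response was -0.67 ± 0.22, with an unadjusted p of 0.0088 from limma and an adjusted p of 0.517.

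The difference in response between the lines passed the test for none of the 6 members at either time. For the ZAT14-like response minus the ZAT14 response limma called 0 of 6 members at 10 h, with 0 at an unadjusted p under 0.05, and 0 at 14 h, with EXL1 the 1 under 0.05. That test of EXL1 is not independent of the filter. Over all genes 0.181% and 0.361% were called. For EXO the difference was -0.14 at 10 h and -0.26 at 14 h, with intervals of 2 SE from -0.55 to 0.27 and from -0.67 to 0.15. For EXL2 they were wider, from -0.63 to 1.63 at 10 h and from -0.64 to 1.61 at 14 h.

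**Figure D2:**
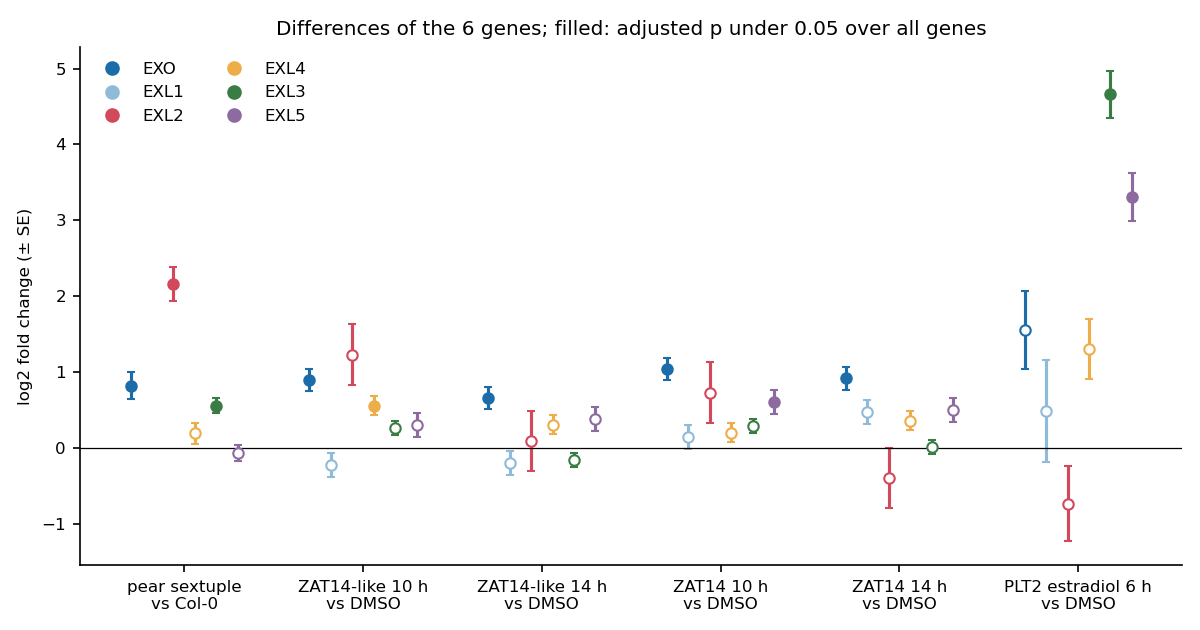
Log2 fold change (vertical axis, error bars SE) of the 6 genes in 6 comparisons: log2(FPKM + 1) from limma for the first 5 and counts from edgeR for PLT2. Filled points passed an adjusted p of 0.05 over all genes. EXO is filled in the first 5, from 0.66 to 1.04, and EXL3 and EXL5 are the filled points after PLT2, at 4.66 and 3.31.

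The genes whose pattern over the 18 libraries of the ZAT lines was most like that of EXO were AT3G01310 (Pearson r = 0.943 of log2(FPKM + 1)), MYB77 (0.913), a MYB transcription factor, and AHL1 (0.912), an AT-hook DNA-binding protein. AT3G01310 was at 3.45 to 4.36 FPKM in the 6 DMSO libraries and at 8.36 to 13.2 in the 12 induced ones. Among members, EXL5 was most like EXO (r = 0.835), with 9 genes more like EXL5 than EXO was. EXO and EXL2 had r = 0.415, and EXL2 and EXL4, the closest pair by sequence, r = 0.331. These values describe 18 libraries that share lines, treatments and scaling.

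Nearest to EXL2 were FMO GS-OX4 (r = 0.945), a flavin monooxygenase of glucosinolate metabolism, AT4G11570 (0.932) and MAPKKK13 (0.914), a kinase. FMO GS-OX4 was at 31.9 to 40.7 FPKM after 10 h of ZAT14-like, at 21.6 to 28.0 with DMSO and at 20.8 to 27.5 after 14 h. Its groups overlapped in the ZAT14 line, at 28.6 to 45.9 after 10 h and 24.4 to 39.2 with DMSO. Nearest to EXL3 were AT2G45180 (0.880), the blue light receptor gene PHOT1 (0.874) and AT5G66050 (0.860). Nearest to EXL4 were AT1G76600 (0.888), the glutathione transferase gene GSTU6 (0.885) and RING (0.881). Nearest to EXL5 were GA20OX3 (0.892), a gibberellin synthesis enzyme, AT2G39210 (0.891) and AT1G73620 (0.871). EXL1, at its low level, had no gene above EX2 (0.685), AT5G62620 (0.684) and AT1G55200 (0.659).

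**Figure D3:**
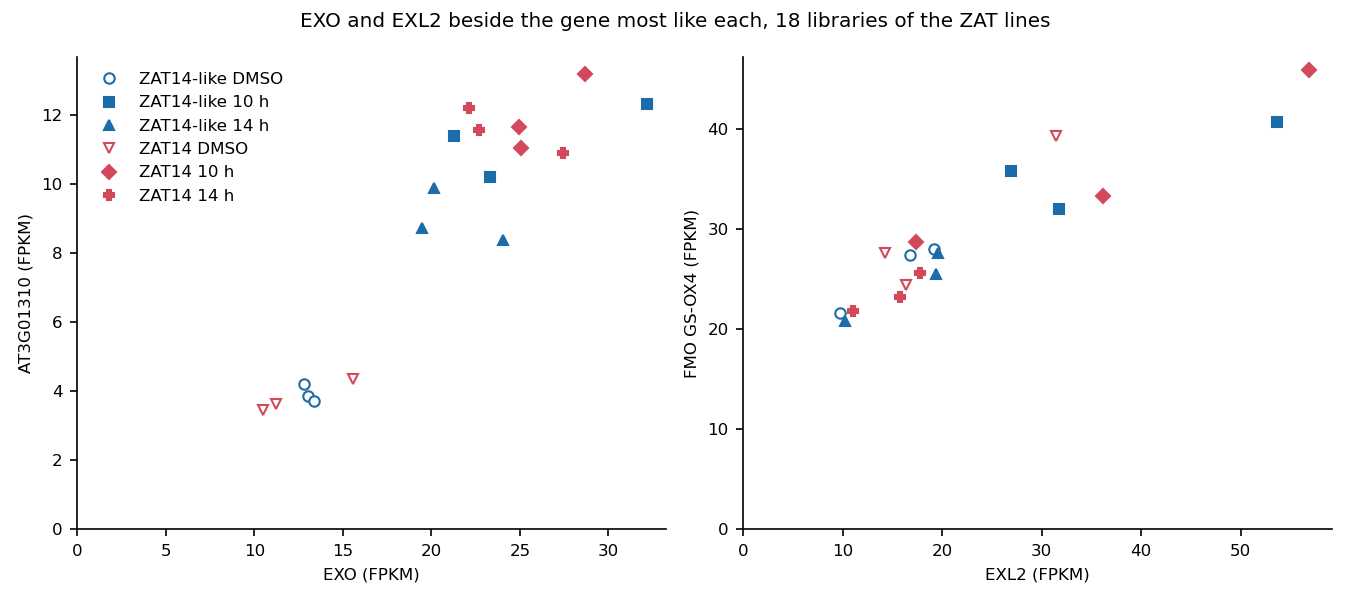
FPKM of EXO (left) and EXL2 (right) on the horizontal axes against the gene most like each, over the 18 libraries of the ZAT lines; open symbols are DMSO controls. For EXO the controls form 1 cluster and the induced libraries another, while for EXL2 the 2 highest points are 10 h libraries, at 53.7 and 56.8 FPKM.

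The means of EXL2 were 15.2, 37.4 and 16.4 FPKM with DMSO, after 10 h and after 14 h of ZAT14-like, and 20.7, 36.8 and 14.9 in the ZAT14 line. EXL2 was not called between the times in the main fit of either line (limma adjusted p = 0.0881 and 0.124). Some genes of low carbon and sugar starvation were called between the times. At 10 h, 9 of 18 tested genes were called higher after ZAT14-like, with 1 lower, and 6 after ZAT14, with median log2 fold changes of 0.38 and 0.33 beside 0.03 and 0.02 over all genes. From 10 h to 14 h, 7 were called lower and 2 higher in the ZAT14-like line, and 8 lower and 1 higher in the ZAT14 line. Those called higher were BZIP11 in both lines (log2 fold change 0.65 and 0.67) and ICL in the ZAT14-like line (0.59). DYL1 was at 3.90 ± 1.29 FPKM with DMSO, 9.84 ± 2.28 after 10 h and 3.59 ± 0.50 after 14 h of ZAT14-like (SD, n = 3 each). DIN10, a raffinose pathway gene, was at 7.56 ± 1.72, 18.2 ± 3.33 and 5.70 ± 0.733 in the same order in the ZAT14 line. The share of this pattern in the level of EXL2 was not tested.

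Of 8 tested brassinosteroid signalling genes, limma called 0 after ZAT14-like at either time (1 at an unadjusted p under 0.05 each), 0 at 10 h of ZAT14 (2 unadjusted) and 1 at 14 h, BKI1 (log2 fold change 0.46). Of 10 genes of synthesis and turnover, 2 were higher at 10 h of ZAT14-like, DWF4 (0.66) and ROT3 (0.39), and 2 at 14 h, BR6OX2 (0.82) and DWF4 (0.67). After ZAT14, limma called 0 of them at 10 h and BR6OX2 alone at 14 h (0.75). IAA19 was called higher at 14 h in both lines (0.80 and 0.70), and no other tested growth gene was called against DMSO.

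Other cell type and stress markers moved in these samples. Xylem markers summed to 20.9 to 23.5 FPKM after 10 h and 37.4 to 52.7 after 14 h of ZAT14-like, against 4.04 to 10.4 with DMSO. In the ZAT14 line the sums were 9.56 to 15.8, 20.6 to 22.6 and 3.63 to 10.6. The calcium-binding touch gene TCH3 was called higher in 3 of the 4 comparisons with DMSO, all but ZAT14 at 10 h. The meristem organizer gene WOX5 was called higher in all 4 comparisons with DMSO, by 2.27 to 3.90 on the log2 scale, while SHR of the same list was called lower at 10 h and 14 h of ZAT14-like (-0.33 and -0.31). Root meristem markers summed to 80.9 to 87.6 FPKM with DMSO and 84.5 to 116.4 after induction. Sieve element markers summed to 15.9 to 20.3 FPKM over the 6 groups, and 1 of them, CVP2, was called lower at both times of ZAT14-like (-0.44 and -0.51). The part of these differences in the members' values was not tested.

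In the sorted sieve element cells EXL3 and EXL5 rose steeply after PLT2 induction. Among the 6 they form the second subgroup, but EXL7, as close to them in sequence, did not pass the test (edgeR adjusted p = 0.847). EXL3 had 238, 78 and 124 counts in the control replicates 1, 2 and 4 and 6440, 6325 and 4636 in the induced replicates 1, 2 and 3. Scaled by TMM factors it was at 5.51, 3.46 and 4.53 CPM against 136.4, 117.5 and 89.7. The lowest induced library held over an order of magnitude more than the highest control, and the log2 fold change was 4.66 ± 0.31 (SE, edgeR quasi-likelihood adjusted p = 0.00621), a fold of 25.4.

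EXL5 had 271, 76 and 130 counts in the control and 2062, 2338 and 2906 in the induced libraries. That was 6.27, 3.37 and 4.75 CPM against 43.7, 43.4 and 56.2, a log2 fold change of 3.31 ± 0.31 (SE, edgeR adjusted p = 0.0166) and a fold of 9.92. These 2 of 6 members were called in a comparison in which edgeR called 162 of 24673 genes, or 0.657%, 64 higher and 98 lower, and 5139 genes had an unadjusted p under 0.05.

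The calls rest on few libraries, while the size of the change does not. Without the control replicate 2 the fits called 0 of all genes, without the control replicate 4 they called 1, and without the control replicate 1 they called 1833. The adjusted p of EXL3 was then 0.056, 0.0861 and 0.0192, and that of EXL5 0.056, 0.103 and 0.0216. Without the induced replicates 1, 2 or 3 edgeR called 4, 3 and 6 genes, with EXL3 among them (adjusted p = 0.0269, 0.0175 and 0.0132) and EXL5 at 0.0709, 0.0597 and 0.076. Over these 6 fits the log2 fold change of EXL3 ran from 4.51 to 4.91 and that of EXL5 from 3.11 to 3.63. With median-ratio size factors the split over all genes moved to 48 higher and 44 lower, and both genes stayed called (edgeR adjusted p = 0.00857 and 0.0176).

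EXO and EXL4 were higher in every induced library than in every control but missed the threshold. EXO was at 14.9, 4.22 and 17.6 CPM in the controls and at 41.0, 23.0 and 43.99 after induction, a log2 fold change of 1.55 ± 0.51 (SE, edgeR adjusted p = 0.14). EXL4 was at 15.1, 10.9 and 6.35 against 27.8, 35.2 and 17.0 CPM, a log2 fold change of 1.302 ± 0.40 (edgeR adjusted p = 0.122). DESeq2 called both (adjusted p = 0.0414 and 0.0229), in a fit that called 3070 genes. Of all genes tested, 17.7% were higher without overlap in this comparison.

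EXL2, the sequence neighbour of EXL4, leaned the other way. It was at 134.4, 95.8 and 33.1 CPM in the controls and at 52.1, 32.7 and 73.8 after induction, a log2 difference of -0.73 ± 0.50 (SE, edgeR adjusted p = 0.46) with overlapping groups. Leaving out 1 library at a time gave differences from -1.13 to -0.19, the latter without the control replicate 1. EXL1 was at 2.13, 1.15 and 6.72 CPM against 5.51, 4.83 and 3.64, also with overlap (edgeR adjusted p = 0.744). EXL7, the relative of EXL3 and EXL5, had 15, 12 and 44 counts against 53, 60 and 51 (edgeR adjusted p = 0.847), and EXL6 had 50, 25 and 41 against 44, 2 and 71 (0.778).

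**Figure D4:**
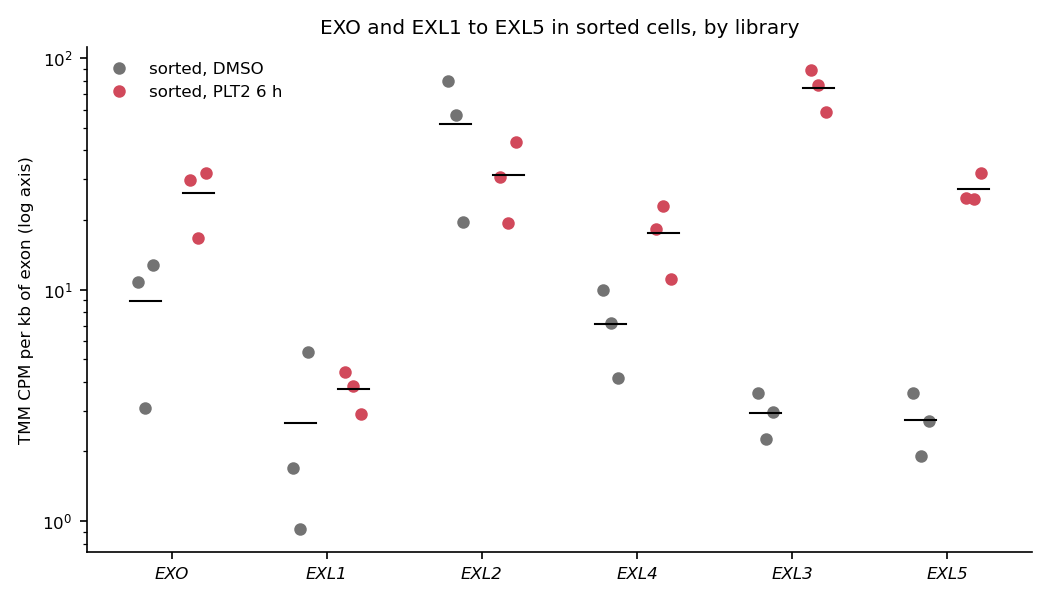
TMM-scaled CPM per kilobase of exon (vertical log axis) of the 6 genes in the sorted cells; points are libraries, bars the mean of 3, grey for DMSO and red for PLT2 induced for 6 h. EXL3 and EXL5 show the widest gaps, and EXL2 and EXL1 overlap.

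Per kilobase of exon, the order of the members turned over. In the control cells EXL2 led at 51.9 ± 30.2 CPM per kilobase, followed by EXO at 8.92 ± 5.16 and EXL4 at 7.09 ± 2.88 (SD, n = 3 each). EXL3 at 2.93 ± 0.667, EXL5 at 2.73 ± 0.824 and EXL1 at 2.66 ± 2.37 did not differ beyond their spread. After induction EXL3 led at 74.7 ± 15.3, above 94.1% of genes with a mean of at least 1, followed by EXL2 at 31.2 ± 12.2, EXL5 at 27.2 ± 4.16 and EXO at 26.2 ± 8.28, which overlapped. EXL4 was at 17.5 ± 5.99 and EXL1 at 3.72 ± 0.756.

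The share of EXL2 in the summed level of the 6 genes was 64.2% ± 20.2 in the control cells and 17.2% ± 6.37 after induction, and that of EXL3 was 4.21% ± 1.73 and 41.4% ± 7.79 (SD, n = 3 each). EXL3 held 8.96% to 14.1% on average in the 6 groups of the ZAT lines and 18.4% to 23.4% in the mutant and Col-0. The sum of the 6 in the ZAT lines was 42.1 and 46.3 FPKM with DMSO, 80.5 and 81.9 after 10 h and 53.0 and 56.3 after 14 h of ZAT14-like and ZAT14. In sorted cells it was 76.2 ± 30.96 CPM per kilobase in the control and 180.6 ± 16.4 in the induced cells.

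**Figure D5:**
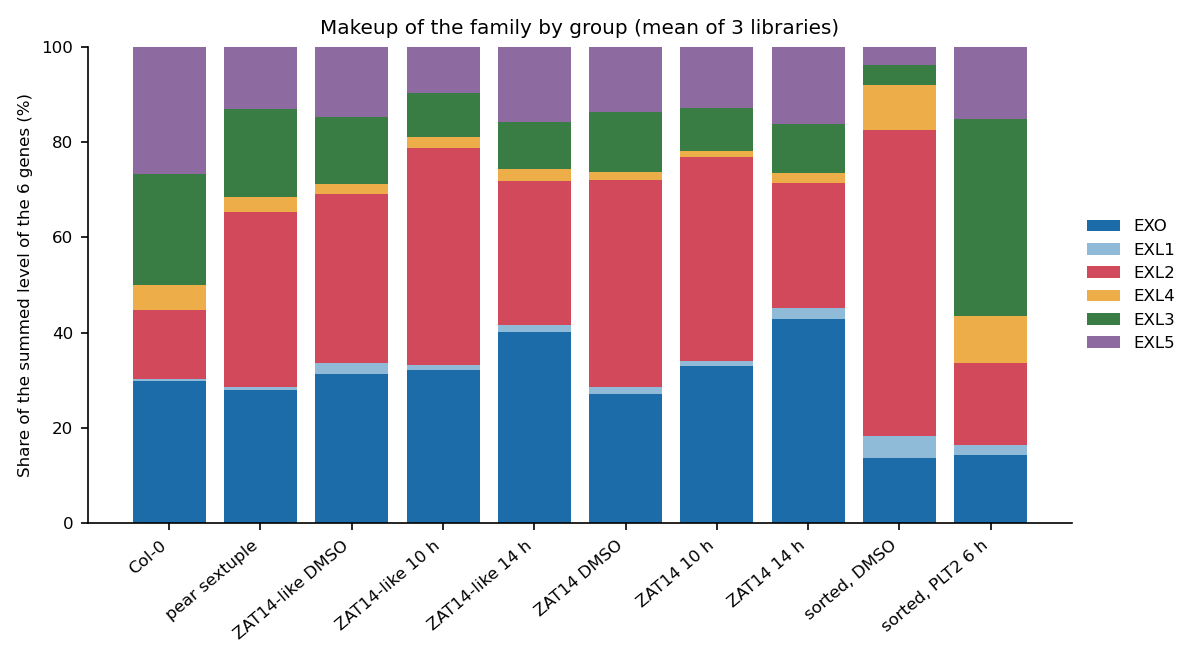
Mean share (vertical axis, %) of each gene in the summed level of the 6 genes per group, from FPKM in whole meristems and CPM per kilobase of exon in sorted cells (n = 3 libraries each). EXO and EXL2 hold most of the sum in the ZAT lines, and EXL3 holds 41.4% in the PLT2-induced cells.

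Growth, hormone and starvation lists gave no calls with edgeR after PLT2 induction. For brassinosteroid synthesis and turnover edgeR called 0 of 10, with 5 at an unadjusted p under 0.05 and 3 called by DESeq2. For brassinosteroid signalling it called 0 of 10, with 6 unadjusted and 5 by DESeq2, of which 1 was higher. Of 8 growth genes, 20 low carbon genes and 8 touch, wound and stress markers it called 0, with 1 unadjusted and 1 by DESeq2 in each.

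The sum of the markers of the sorted cell type was lower in the induced cells. The 9 sieve element markers summed to 8289 to 17610 CPM in the controls and 3669 to 7495 after induction. Of the 9, edgeR called 1, the sieve element filament gene SEOR1 (log2 fold change -2.78), with 7 at an unadjusted p under 0.05. DESeq2 called 6, of which 1 was higher. The 2 companion cell markers summed to 696.0 to 1511 and 207.2 to 375.3 CPM, and xylem markers to 19.8 to 32.5 and 6.98 to 11.7. With edgeR 0 of the 2 companion cell markers were called. Their median log2 fold change was -0.30, so the sum does not describe each gene. Among the 4 xylem markers XCP2 was called lower by edgeR. Root cap, endodermis and epidermis sums overlapped between the groups. The part of these differences, and of the different sorting gate, in the rise of EXL3 and EXL5 was not tested.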

How the data were processed

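Whole-meristem RNA-seq was deposited as FPKM tables, 1 for the mutant and 1 for the ZAT lines. The submitters' processing notes list TopHat2 and HTSeq, and TAIR10 as the build, and give no versions. For the sorted protoplasts the authors deposited raw counts, for which the same notes list Bowtie2 and featureCounts. The strand setting is not given in the sources used here. A gene's FPKM moves with all other genes of its library, the depth behind it is unknown, and counts of amplified cDNA are not independent molecules.

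The log2(FPKM + 1) values were compared with limma 3.58.1 (R 4.3.3; lmFit, then eBayes with a trend), keeping genes that reached 1 FPKM in 3 or more libraries. The mutant table was fitted alone and the ZAT table as 6 group means over 18 libraries. This scale understates changes of low genes. Counts were tested with edgeR 4.0.16 (TMM, filterByExpr, quasi-likelihood). TMM factors were 0.717 to 1.007 in control and 1.154 to 1.276 in induced libraries. Tests were two-sided, with Benjamini-Hochberg adjustment over all genes and a call at 0.05. The SE of an edgeR log2 fold change is its size over the square root of F. The fits were tested on simulated data.

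The members, gene lists and tests were chosen with earlier results of these data known. Named genes were the 6 members, EXL6 and EXL7, up to 4 called genes per list and comparison by adjusted p, the 3 genes most like each member, and targeted and marker genes where a result turned on them. Gene models and upstream sequence came from TAIR10.1 (RefSeq), matched by locus code (31912 of 32678, 32548 of 34218 and 32835 of 33602 genes). Alternatives were another pseudocount, no filter, median-ratio scaling, DESeq2 1.42.0, a replicate block, an added fold threshold, the compared groups only and leaving out libraries.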

Additional observations from a re-analysis of the deposited data

How the results depend on the processing

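EXL2, EXO and EXL3 in the pear mutant and EXO after ZAT14-like or ZAT14 stayed called, in the same direction, in all alternatives run except the fold threshold. When a log2 change of 1 or more in size was required too, members called were 1 in the mutant (EXL2), 1 at 10 h of ZAT14 (EXO), and 0 at both times of ZAT14-like, at 14 h of ZAT14 and between the times of ZAT14-like. With the compared groups only, they were 1 at 10 h and 2 at 14 h of ZAT14-like, 1 at 10 h of ZAT14 and 0 between the times of ZAT14-like. At 10 h of ZAT14 they were also 1 without the filter, with median-ratio rescaling, with the replicate block and without the 3 libraries numbered 2, an alternative chosen after seeing the data. With the replicate block they were 3 at 10 h of ZAT14-like, where EXL2 was called (log2 fold change 1.45, limma adjusted p = 0.0108), 2 between the times of ZAT14-like, with EXL2 added (adjusted p = 0.0251), and 4 after PLT2, with EXO higher and EXL2 lower (-1.46, edgeR adjusted p = 0.0261) added. After PLT2 and in the mutant, only 2 same-numbered pairs joined the groups. The block fit there rests on these pairs and leaves few degrees of freedom. DESeq2 also gave 4 after PLT2, with EXO and EXL4 added, both higher. Leaving out 1 library gave 1 to 2 at 10 h of ZAT14, 0 to 1 between the times of ZAT14 and 0 to 2 after PLT2. The causes were not tested. Labels share only replicate numbers: same-numbered libraries deviated with r from 0.253 to 0.356 in the mutant table, -0.16 to 0.417 over the 8 pairs of an induced group with the DMSO group of its line, and -0.066 to 0.176 in the sorted cells. None of the member differences recomputed under these alternatives (those called, or gaining a call, in some setting) changed sign. The balance of calls over all genes did turn over with scaling: calls that were higher went from 70.5% to 49.4% in the mutant and from 39.5% to 52.2% after PLT2. With the replicate block 1829 genes, and with DESeq2 3070, were called after PLT2 against 162, and 626 without a filter. With the compared groups only, calls numbered 406 against 2365 at 10 h of ZAT14-like, 72 against 551 at 10 h of ZAT14 and 297 against 1485 between the times of ZAT14-like. Leaving out 1 library gave 1077 to 3731, 1097 to 2071, 150 to 520 and 343 to 748 calls against DMSO, for ZAT14-like at 10 h and 14 h and then ZAT14 at 10 h and 14 h. Between the times they were 678 to 2413 for ZAT14-like and 414 to 864 for ZAT14, for the differences between lines 18 to 42 at 10 h and 28 to 54 at 14 h, and after PLT2 0 to 1833. With the fold threshold the calls were 2047 in the mutant, 179, 263, 91 and 100 against DMSO in the order above, and 151 and 113 between the times. Without the 3 libraries numbered 2 they were 1049, 1060, 360 and 309 against DMSO and 14 and 30 for the differences between lines. For those differences they were 16 and 15 with a pseudocount of 0.1, 4 at 10 h with the compared groups only and 121 at 14 h without a filter, against 31 and 62. Median-ratio factors gave 92 after PLT2. Precision is limited by 3 libraries per group and, after PLT2, by the spread among controls.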
